A study of Mus musculus with 2 samples.

Results

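The genes examined here encode feedback inhibitors of mitogen-activated protein kinase (MAPK) signalling: the dual-specificity phosphatases Dusp1, Dusp4, Dusp5, Dusp6 and Dusp10, the Sprouty proteins Spry1, Spry2 and Spry4, and the Sprouty-related proteins Spred1 and Spred2. Open chromatin around them was mapped by DNaseI-seq in NMuMG cells, an established mouse mammary epithelial line. The assay cuts accessible DNA in isolated nuclei with the nuclease DNaseI, and stretches rich in the sequenced short fragments are called as peaks. All cells went without serum and insulin for 6 h, and for the next 2 h they were given TGFβ1 (5 ng/ml) or vehicle, the solution in which it was dissolved. The carrier is named differently in separate label fields, as Tris-HCl with BSA in one and as dilute HCl with BSA in another. The vehicle list held 17784 distinct peaks and the TGFβ 2 h list held 22600, with 1 deposited list for each of the 2 conditions. Every difference given here is therefore between a pair of lists, without an estimate of the spread between replicates and without a test. A site open in more cells and a site more open in each cell cannot be told apart in such bulk data. Peaks were assigned to a gene when they overlapped its body or lay within 50 kb of it on mm9. This rule found 24 vehicle peaks and 32 TGFβ 2 h peaks near the 10 genes, and no peak was counted for more than 1 of them. Of 6 epithelial marker genes, Cdh1, Krt8 and Krt18 had a promoter peak in both lists and Grhl2 in the vehicle list only, while Epcam and Esrp1 had none in either. None of the 3 leukocyte and 2 endothelial markers had a promoter peak.

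MAPK pathways pass signals from receptors at the membrane through Ras and a chain of kinases to transcription factors in the nucleus. ERK, JNK and p38, the last kinases of these chains, phosphorylate factors such as ETS proteins and the Fos and Jun families that form AP-1. The same pathways raise transcription of their own inhibitors: Dusp proteins remove the activating phosphates from the kinases, and Sprouty and Spred proteins act upstream, between the receptor, Ras and Raf. TGFβ signals mainly through SMAD proteins and also activates MAPK branches in epithelial cells, with AP-1 as a frequent partner of SMADs on chromatin.

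The AP-1 sites in distal peaks called only after TGFβ are printed first because these peaks were the largest unshared class at the 10 genes. An exact AP-1 match is TGACTCA or its reverse complement TGAGTCA. Each window is read from the plus strand of mm9, 5′ to 3′, with 50 bases on either side of the match and the match in capitals. The windows were taken by peak score with each gene once first, and none lies over an exon. The name before each sequence gives the gene and the position of the window.
Dusp5, chr19:53565552-53565658: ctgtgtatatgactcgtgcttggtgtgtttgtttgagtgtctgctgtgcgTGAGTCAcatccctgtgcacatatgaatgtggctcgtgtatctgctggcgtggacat
Dusp6, chr10:98771656-98771762: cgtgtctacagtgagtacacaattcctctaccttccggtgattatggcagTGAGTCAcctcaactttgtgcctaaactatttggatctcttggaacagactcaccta
Dusp10, chr1:185909030-185909136: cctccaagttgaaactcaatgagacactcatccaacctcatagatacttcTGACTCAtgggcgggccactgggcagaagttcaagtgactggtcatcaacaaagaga
Spred2, chr11:19861353-19861459: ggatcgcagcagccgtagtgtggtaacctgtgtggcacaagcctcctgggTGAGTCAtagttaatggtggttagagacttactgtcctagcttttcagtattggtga
Dusp4, chr8:35878337-35878443: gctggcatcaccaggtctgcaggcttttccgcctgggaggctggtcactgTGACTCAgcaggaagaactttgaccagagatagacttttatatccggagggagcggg
Spred2, chr11:19826224-19826330: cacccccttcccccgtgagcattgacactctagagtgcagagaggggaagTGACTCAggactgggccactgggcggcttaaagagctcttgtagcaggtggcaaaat

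The first comparison asked how many sites were called open around the feedback genes with vehicle and after TGFβ. The 32 TGFβ 2 h peaks against 24 vehicle peaks gave a ratio of 1.33 (exact binomial 95% interval 0.761 to 2.37), beside 1.27 (1.25 to 1.3) for all peaks. Peaks that overlapped no peak of the other list by at least 1 bp are called vehicle-only or TGFβ-only, a statement about calls that leaves the signal in the other condition unknown. TGFβ-only peaks made up 13 of the 32 (40.6%, Wilson 95% interval 25.5 to 57.7), against a background of 33.7% of all TGFβ 2 h peaks. Vehicle-only peaks made up 6 of the 24 (25%, 12 to 44.9), against 17.6% of all vehicle peaks. Both backgrounds lay inside the intervals, which cover counting error only. Counted within 50 kb of each coding gene instead, with a peak taken once for each gene, the backgrounds were 25% TGFβ-only and 14.6% vehicle-only. Of these, 25% lies just below the interval of 25.5 to 57.7, and 14.6% lies inside that of 12 to 44.9. The reading of the TGFβ-only share thus differs with the background chosen, and it was not tested. The ratio of TGFβ-only to vehicle-only peaks was 2.17 (0.768 to 6.95), beside 2.43 (2.33 to 2.54) for all peaks. With the TGFβ 2 h list cut by score to 17784 peaks, the genes held 24 peaks in each list, of which 7 were vehicle-only and 6 TGFβ-only. The added vehicle-only call was the Spry2 promoter peak, whose TGFβ 2 h partner (score 614) fell to the cut. Only the TGFβ 2 h list was cut, to scores of 655 or more, while vehicle scores down to 540 stayed. The cut therefore cannot show what the excess depended on. Over all peaks the same equal-length comparison left 23.9% vehicle-only and 22.8% TGFβ-only. The vehicle library, with the shorter list, was sequenced more deeply according to the study, and the part of depth in these counts was not tested.

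More peaks after TGFβ than with vehicle were found at 5 of the 10 genes (Dusp6, Dusp10, Spry4, Spred1 and Spred2), equal numbers at Dusp1, Dusp5, Spry1 and Spry2, and fewer at Dusp4. The background was 33.7% of 22350 protein-coding genes with more TGFβ 2 h peaks, and 43.5% of the 17299 that had a peak in either list. At least 1 TGFβ-only peak was present at 8 of the 10 genes, all but Spry2 and Spry4, against 40.5% of all coding genes and 52.4% of those with a peak. At least 1 vehicle-only peak was present at Dusp1, Dusp4, Dusp5, Spry1 and Spred2, 5 of 10 against 25.9% and 33.5%. All 10 genes had a peak within 1000 bp of a start site of their own in both lists, which held for 43.8% of all coding genes and 56.6% of those with a peak. At Spred2 after TGFβ this was a 118 bp intronic peak 0.974 kb from the start. The plot of peaks per gene gives these counts by class.

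**Figure D1:**
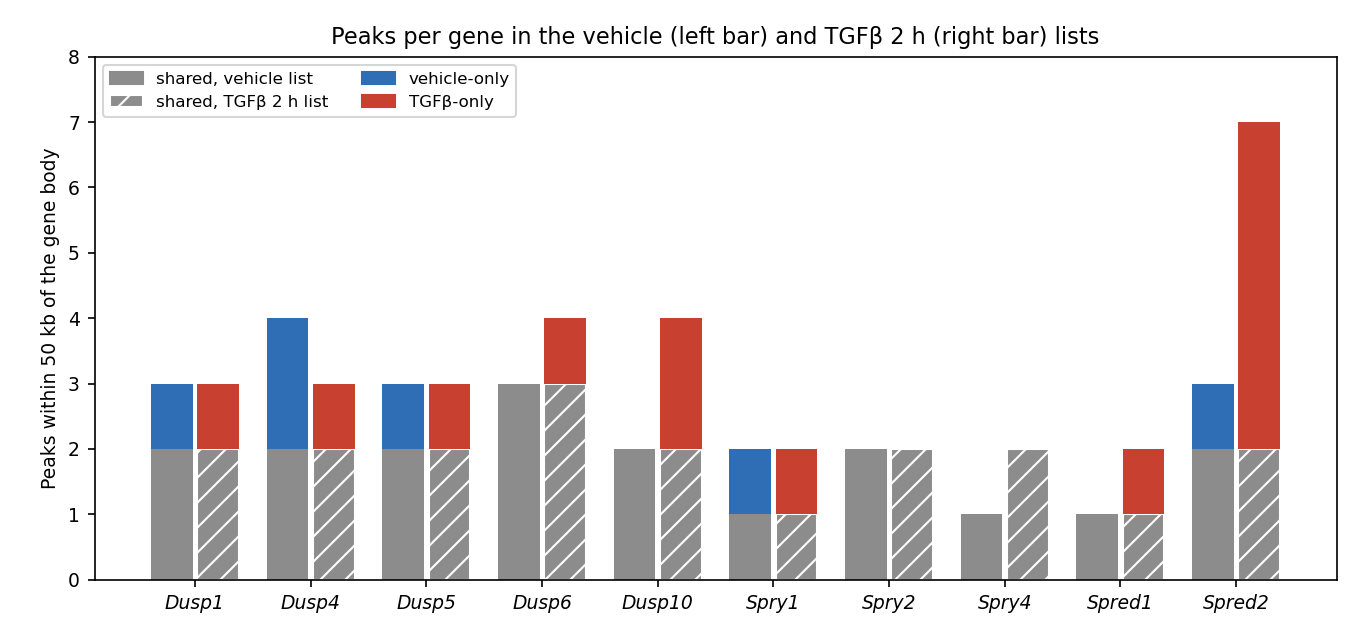
Number of distinct DNaseI-seq peaks within 50 kb of each gene body (vertical axis) for the vehicle list (left bar) and the TGFβ 2 h list (right bar), stacked by class; there is 1 list per condition and no error bar. Spred2 holds 3 vehicle and 7 TGFβ 2 h peaks, and the other genes hold between 1 and 4 in either list.

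Promoter and distal peaks were then set apart, a promoter peak being one that overlapped 1000 bp on either side of an annotated transcript start. The genes had 13 promoter peaks in each list, and 11 distal peaks with vehicle against 19 after TGFβ. Of the distal TGFβ 2 h peaks, 11 of 19 were TGFβ-only (57.9%, 36.3 to 76.9; background 55.3%). Of the distal vehicle peaks, 3 of 11 were vehicle-only (27.3%, 9.75 to 56.6; background 31.6%). Among promoter peaks, 2 of 13 were TGFβ-only (15.4%, 4.33 to 42.2; background 10.1%) and 3 of 13 were vehicle-only (23.1%, 8.18 to 50.3; background 7.29%). All 5 unshared promoter peaks lay within 1000 bp of a peak of the other list. When peaks up to 1000 bp apart were counted as shared, 3 vehicle-only and 10 TGFβ-only peaks were left, all of them distal, beside 15.8% of all vehicle and 31.6% of all TGFβ 2 h peaks at that setting. Promoter peaks made up 54.2% of the vehicle peaks and 40.6% of the TGFβ 2 h peaks, beside 57.6% and 47.9% over all peaks.

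**Figure D2:**
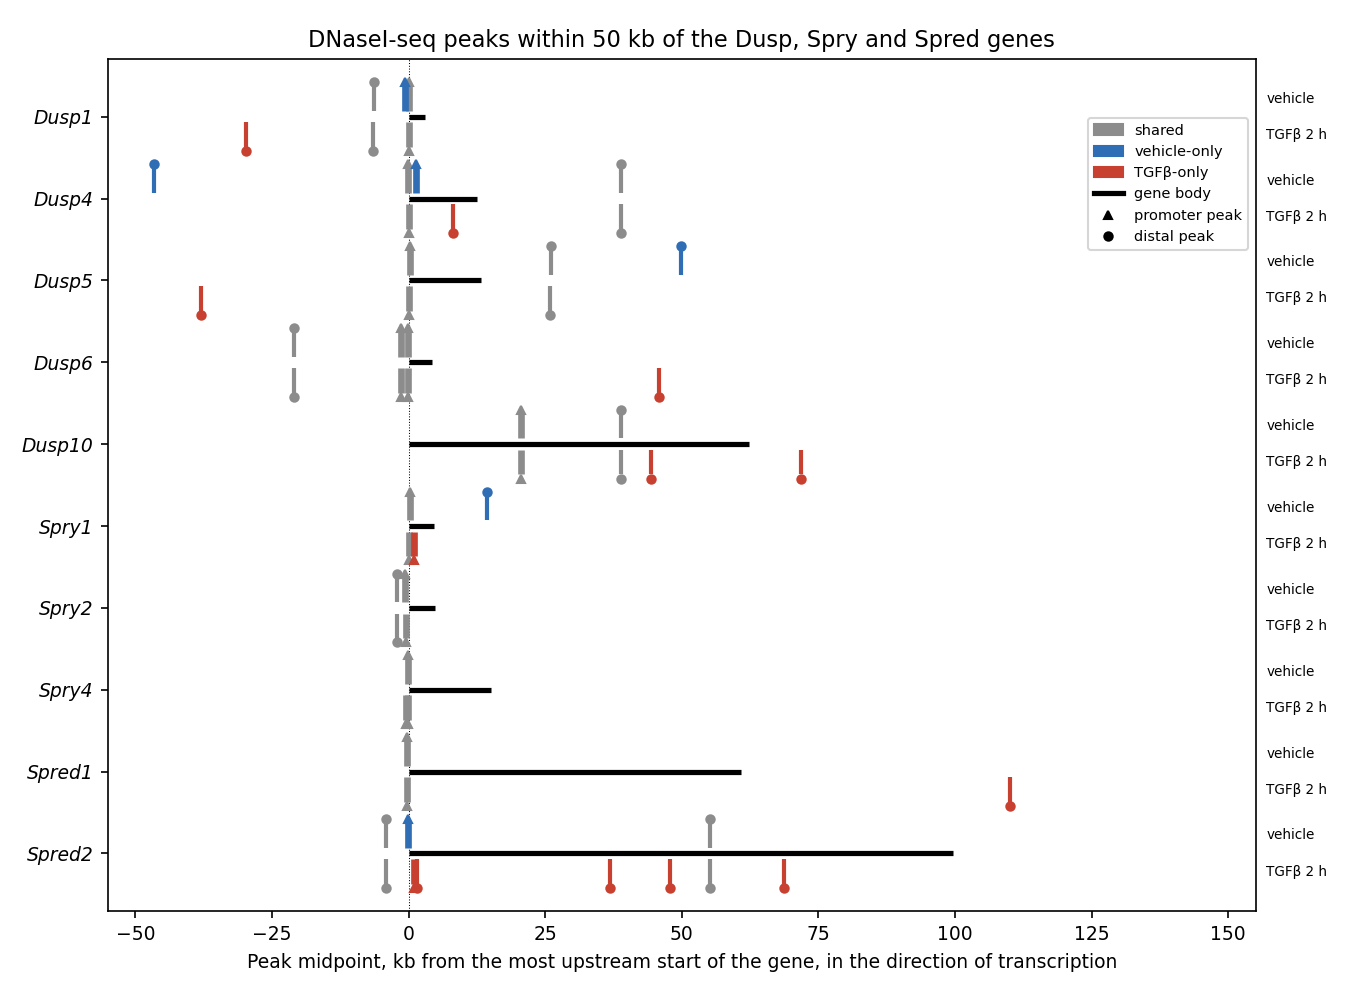
Position of each peak midpoint in kb from the most upstream start of its gene, in the direction of transcription (horizontal axis), with the vehicle list above and the TGFβ 2 h list below each gene body (black bar). Promoter peaks (triangles) sit close to the start except at Dusp10, whose promoter peak lies 20.6 kb downstream, and 11 of the 13 TGFβ-only peaks (red) are distal.

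Dusp1, Dusp4 and Dusp5 encode nuclear phosphatases of the MAPKs, and their windows together held 10 vehicle and 9 TGFβ 2 h peaks. Dusp1, an immediate-early gene whose product acts on JNK, p38 and ERK, had 3 peaks in each list. Its promoter peak scored 1000, the ceiling of the deposited peak score, in both lists and was 1031 bp wide with vehicle and 997 bp after TGFβ. A score ranks a peak within its own list, and equal scores in the lists need not mean equal signal. A shared distal peak 6.5 kb upstream also scored 1000 in both and was 764 bp wide with vehicle and 567 bp after TGFβ. A 111 bp vehicle-only peak with a score of 592 lay 87 bp upstream of the promoter peak called after TGFβ. The TGFβ-only peak of Dusp1 (chr17:26675133-26675429, score 549) was 29.8 kb upstream in intergenic sequence, nearer to the start of Gm8225 than to that of Dusp1. Its score was close to the lowest in the list, 540.

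Dusp1 peaks carried cyclic-AMP response elements (CRE, TGACGTCA, which is its own reverse complement), the sites bound by CREB and ATF proteins. The matches are shown because Dusp1 was the one gene of the set with a CRE match, and they were picked after the values had been seen. The promoter match lay 89 to 96 bp upstream of the start, and 2.33% of 22350 coding promoters (250 bp before to 50 bp after the start) held one. The TGFβ-only peak at 29.8 kb held another, 54 bp from its midpoint, against 0.307% of all distal TGFβ-only peaks. The shared peak at 6.5 kb held a pair of AP-1 matches. Capitals mark the matches.
Dusp1 promoter, CRE, chr17:26645503-26645610: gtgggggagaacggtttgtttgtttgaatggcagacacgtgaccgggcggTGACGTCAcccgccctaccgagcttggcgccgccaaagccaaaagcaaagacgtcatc
Dusp1 distal TGFβ-only peak, CRE, chr17:26675173-26675280: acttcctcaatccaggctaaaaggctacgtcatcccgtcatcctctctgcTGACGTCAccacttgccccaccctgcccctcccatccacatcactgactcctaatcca
Dusp1 distal shared peak, AP-1 pair, chr17:26651719-26651850: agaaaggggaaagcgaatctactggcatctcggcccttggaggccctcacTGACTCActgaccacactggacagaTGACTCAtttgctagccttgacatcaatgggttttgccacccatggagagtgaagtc

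Dusp4 was the gene of the set with fewer peaks after TGFβ, 3 against 4. Its shared promoter peak scored 1000 in both lists. A broad vehicle-only peak of 1381 bp (chr8:35870938-35872318, score 802) was centred in an intron and began 99 bp after the end of the TGFβ 2 h promoter peak. The other vehicle-only peak lay 46.6 kb upstream with a score of 593 and held an AP-1 match 19 bp from its midpoint. The TGFβ-only peak lay in an intron 8.11 kb downstream of the start (chr8:35878269-35878654, score 568), the one whose AP-1 window is printed above. The bases covered near Dusp4 came to 3806 with vehicle and 1904 after TGFβ. A shared distal peak 38.8 kb downstream, inside an intron of the neighbouring gene Tnks, scored 569 with vehicle and 894 after TGFβ and held a pair of AP-1 matches.

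Dusp5, whose product is specific for ERK in the nucleus, had 3 peaks in each list, with 1 unshared peak in each. The vehicle-only peak (score 919) lay 49.9 kb downstream of the start, nearer to Nutf2-ps1, and the TGFβ-only peak (chr19:53565311-53565975, score 899) lay 38 kb upstream. Between them a shared peak 25.9 kb downstream was 582 bp wide with vehicle and 1190 bp after TGFβ, a ratio of 2.04, with scores of 689 and 977. The vehicle peak held 1 AP-1 match (chr19:53629685-53629691). The wider TGFβ 2 h peak held that match and another (chr19:53629163-53629169) that lay before the start of the vehicle peak at position 53629448. No other shared pair of the 10 genes had as high a width ratio.

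The Dusp5 promoter peak scored 1000 in both lists and held a pair of adjoining CArG boxes, the element bound by serum response factor, 27 to 46 bp upstream of the start. A CArG box was present in 1.47% of the 22350 coding promoters, and at least 2 were present in 8 of them (0.0358%). The sequence was chosen for printing after the match had been seen, and capitals mark the pair.
Dusp5 promoter, chr19:53603503-53603598: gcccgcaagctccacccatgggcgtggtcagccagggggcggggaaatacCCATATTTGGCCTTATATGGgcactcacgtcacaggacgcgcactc

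Dusp6, the cytoplasmic phosphatase specific for ERK and a common readout of ERK activity, had 3 vehicle and 4 TGFβ 2 h peaks and no vehicle-only peak. It was covered by a pair of promoter peaks, centred 1.34 and 0.057 kb upstream after TGFβ, that scored 1000 in both lists. The upstream one of the pair held 2 CArG boxes with vehicle, both of them outside the interval called after TGFβ, which began at position 98724046 of the chromosome. A shared peak 20.9 kb upstream scored 727 with vehicle and 1000 after TGFβ. The TGFβ-only peak (chr10:98771370-98771919, score 898) lay 45.8 kb downstream with no other coding gene in the window. The nearest peaks beyond the 50 kb limit lay 51.1 kb (vehicle) and 51.2 kb (TGFβ 2 h) from the Dusp6 gene.

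Dusp10, a phosphatase that prefers JNK and p38 to ERK, had 2 vehicle and 4 TGFβ 2 h peaks. Its promoter peak, at a score of 1000 in both lists, lay 20.6 kb inside the gene at another annotated Dusp10 start, which it shared with 1700056E22Rik. The start farthest upstream had no peak in either list. An intronic peak 38.8 kb downstream was shared and scored 806 with vehicle and 1000 after TGFβ. The TGFβ-only peaks lay 44.3 kb (intron, score 559) and 71.9 kb (past the gene end, chr1:185908910-185909192, score 854) from the upstream start, and both held an AP-1 match within 100 bp of the midpoint.

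The Sprouty genes, whose products block receptor signalling to Ras, together held 5 vehicle and 6 TGFβ 2 h peaks, with 1 unshared peak in each list. Spry1 had 2 peaks in each: a shared promoter peak at a score of 1000, a vehicle-only peak 14.4 kb downstream (score 655) and a TGFβ-only peak (chr3:37539752-37540106, score 849) centred in an intron, 84 bp past the end of the vehicle promoter peak. Spry2 had the same pair of peaks in both lists and no unshared peak. Its promoter peak scored 774 with vehicle and 614 after TGFβ, with widths of 722 and 454 bp, and the peak 2.02 kb upstream scored 908 with vehicle and 838 after TGFβ. Spry4 had a vehicle promoter peak of 729 bp (score 702) that overlapped a pair of TGFβ 2 h peaks of 360 and 243 bp (scores 903 and 786), so that its higher count after TGFβ came from a divided peak. These peaks were also promoter peaks of Arhgap26 and 9630014M24Rik. The 243 bp peak lay 0.169 kb from the 9630014M24Rik start and 0.435 kb from that of Spry4. With peaks assigned to the nearest coding gene only, the difference at Spry4 was 0. Spry2 and Spry4 were also the genes with no peak at the ceiling score in either list.

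Spred1 and Spred2, which bind neurofibromin and restrain Ras and Raf, together held 4 vehicle and 9 TGFβ 2 h peaks. At Spred1 the promoter peak scored 1000 in both lists, and a TGFβ-only peak (score 612) lay 110 kb from the start and 48.9 kb past the gene end, nearest to the start of Fam98b. Of the peaks assigned to the 10 genes this one lay closest to the 50 kb limit.

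Spred2 accounted for 5 of the 13 TGFβ-only peaks, a number reached by 0.908% of all coding genes and 1.17% of those with a peak. At 99.7 kb it is the longest gene of the set, and a longer gene has a wider window. Among the other pathway genes at least as long as Lrig1 (95.6 kb), the number was 0 at Braf (122 kb), 1 at Sos2 and Nf1, and 3 at Egfr and Ksr1. It was 5 at Lrig1 itself and 9 at Fgfr2, which is 3009 kb long as annotated and held 37 vehicle and 39 TGFβ 2 h peaks. All 5 midpoints lay in its introns, 0.974 kb (score 606, 118 bp wide), 1.55 kb (606, 813 bp), 36.9 kb (684, 434 bp), 47.8 kb (576, 110 bp) and 68.7 kb (918, 778 bp) from the start. At its promoter a vehicle-only peak (chr11:19824106-19824526, score 983) covered the start, and the nearest TGFβ 2 h peak began 766 bp past its end. The shared peaks of Spred2 lay 4.08 kb upstream and 55.1 kb downstream, with the TGFβ-only peak at 68.7 kb beyond the latter. Their widths were nearly the same in both lists, 800 and 803 bp for the former and 782 and 814 bp for the latter. The former scored 1000 in both lists, and the latter 1000 with vehicle and 938 after TGFβ. Without Spred2 the other 9 genes held 8 TGFβ-only and 5 vehicle-only peaks, a ratio of 1.6, and 25 against 21 peaks in all. With the TGFβ 2 h list cut to the vehicle length, which kept no score under 655, the excess of TGFβ 2 h peaks at Spred2 was 1 instead of 4. A further TGFβ 2 h peak lay 50.1 kb from the gene, just past the limit.

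Shared peaks were compared by width and by the rank of their score within their own list. In 17 pairs each peak overlapped its partner and no further peak of that list. The TGFβ 2 h peak was narrower in 12 of the 17, against 70.9% of all such pairs, and the median width ratio was 0.906 both here and over all pairs. In 10 of the 17 both peaks scored 1000 and could not be ranked. Of the 6 distal pairs below the ceiling in at least 1 list, 5 ranked higher in the TGFβ 2 h list, against 66.8% of all such pairs. A rank depends on the other peaks of its list, and the TGFβ 2 h list held more of them. A score of 1000 has no rank of its own, and its percent rank is the mean over all ties, 73.4 with vehicle and 77.9 after TGFβ, so that pairs at 1000 in both lists already differ by 4.46 points. The 4 Dusp pairs had percent ranks of 24.7 with vehicle and 77.9 after TGFβ at Dusp6 (20.9 kb upstream), 32.1 and 77.9 at Dusp10, 4.82 and 47.2 at Dusp4, and 20.6 and 54 at Dusp5. At the Spry and Spred genes the ranks were 40.3 and 42.1 for the distal pair of Spry2, 73.4 and 50.9 for that of Spred2, and 29.3 and 14.4 for the promoter pair of Spry2. Whether the Dusp genes differ from the Spry and Spred genes in this was not tested.

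**Figure D3:**
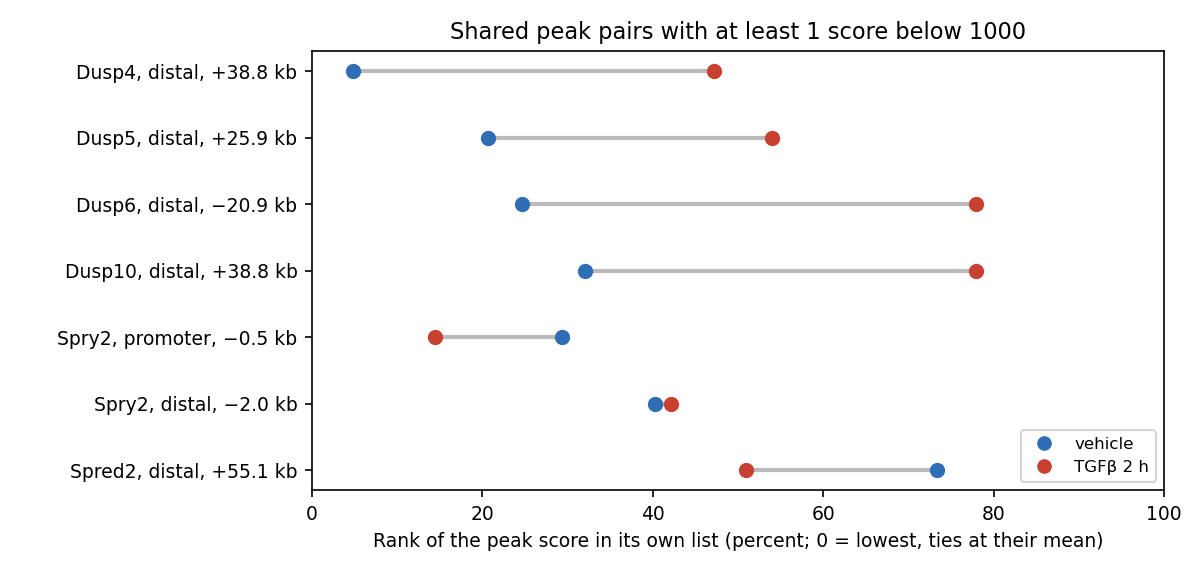
Rank of the peak score within its own list in percent (horizontal axis, 0 lowest, ties at their mean) for the 7 shared pairs of the 10 genes with a score below 1000 in at least 1 list; blue points are vehicle and red points TGFβ 2 h. The 4 Dusp pairs lie further right after TGFβ, those of Dusp6 and Dusp10 at the mean rank of the ties at 1000, while the promoter pair of Spry2 and the pair of Spred2 lie further left.

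Sequence content was examined for features that the choice of genes did not use. An AP-1 match lay in the 200 bp around the midpoint of 5 of the 11 distal TGFβ-only peaks (45.5%, Wilson 95% interval 21.3 to 72), against 27.2% of all distal TGFβ-only peaks, a value inside that interval. The 5 peaks belonged to Dusp4, Dusp5, Dusp6 and Dusp10, and with the peak of Dusp1, which had no match, 5 of 6 distal TGFβ-only peaks of the Dusp genes had one, while none of the 5 distal TGFβ-only peaks of the Spry and Spred genes did. Over the whole peak the counts were 5 of 6 and 2 of 5, both of the latter at Spred2, and 7 of 11 together against 45.2% of all. This split by family was described after the values were seen, rests on few peaks and was not tested. Among the 8 shared distal peaks, 4 had an AP-1 match in the window of the vehicle peak (50%, 21.5 to 78.5; 22.3% of all shared distal vehicle peaks) and 2 in that of the TGFβ 2 h peak (25%, 7.15 to 59.1; 23.5% of all). Over the whole peak 5 of the 8 held one in either list, beside 44.5% and 44.3% of all. Of the 3 distal vehicle-only peaks 1 had a match (33.3%, 6.15 to 79.2; 7.64% of all), so that AP-1 matches near the 10 genes were present in every class of distal peak. The files hold no summits, so the midpoint is a rough guide to the centre of the signal.

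**Figure D4:**
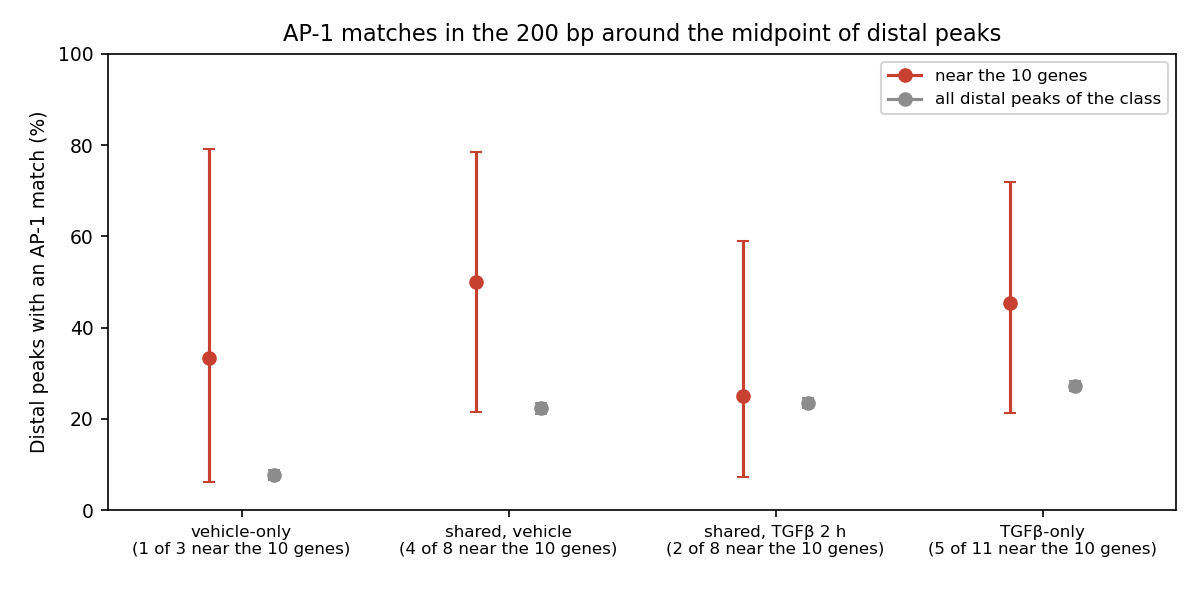
Share of distal peaks with an AP-1 match in the 200 bp around the midpoint (vertical axis, percent) for the 4 classes of peaks, near the 10 genes (red) and over all distal peaks of the class (grey); bars are Wilson 95% intervals that cover counting error only. Near the genes 5 of 11 TGFβ-only peaks had a match, and the interval of 21.3 to 72 includes the 27.2% of all such peaks.

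Other motifs were searched in the same windows. None of the 11 distal TGFβ-only peaks held an ETS match (CCGGAAGT), a CArG box or the SMAD palindrome (GTCTAGAC) in the 200 bp window, beside 0.307%, 0.92% and 0.675% of all distal TGFβ-only peaks. The SMAD 5GC element (GGCGCC) was present in 1 of the 11 (2.56% of all), at Spred1, and the TEAD motif (CATTCC) in none (14.9% of all). Over the whole peak GGCGCC was present in 2 of the 11 (4.22% of all) and CATTCC in 3 (30% of all), while the ETS, CArG and palindrome counts stayed at 0. In promoter peaks GGCGCC lay in the 200 bp window of 2 of 13 in each list (21.4% of all vehicle and 20.2% of all TGFβ 2 h promoter peaks). Over the whole promoter peak it was present in 10 of 13 with vehicle (51.6% of all) and 6 of 13 after TGFβ (47.4% of all), where the median widths of the searched peaks were 1031 and 868 bp. Both strands were searched for exact strings, except that the CArG box was matched as a pattern with A or T at each central position, and a missing match says only that these letters were not in the window. The base composition followed the kind of peak: promoter peaks of the 10 genes had a median GC content of 64.7% with vehicle and 65.2% after TGFβ, and distal peaks 49.9% and 49.7%. Over all peaks the medians were 62.6% and 63.4% for promoters and 51.7% and 51.1% for distal peaks.

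Peaks near other genes of the pathway were counted in the same way, so that a peak between neighbouring genes of a list counts for each. Of 14 other feedback genes found in the annotation, 8 had more TGFβ 2 h than vehicle peaks, 4 had equal numbers and 2 had fewer. The background for this and the following lists is 33.7% of all coding genes with more, and 43.5% of those with a peak in either list. The largest differences, named after the values were seen, were at Lrig1, a receptor inhibitor, with 4 vehicle and 9 TGFβ 2 h peaks, and at Dusp16, a phosphatase for JNK and p38, with 6 and 10. Dusp7 had 5 and 3, and Dusp2, a nuclear phosphatase, had 0 and 2. Among 23 genes of receptors, adaptors and kinases, most of the Ras-ERK chain and with Mapk8, Mapk9, Mapk14 and Map3k7 of the JNK and p38 chains, 12 had more, 9 equal and 2 fewer, with a median of 3 vehicle and 4 TGFβ 2 h peaks. Among 11 genes of AP-1 subunits and other immediate-early genes 10 had more and Jun had 1 peak in each list, with a median of 5 and 8. The TGFβ-only share of their TGFβ 2 h peaks was nevertheless 21.1%, below the 25% over all coding genes counted in the same way. That share was 22.6% for the 23 genes of receptors, adaptors and kinases and 37.5% for the 14 other feedback genes. The feedback genes examined here had medians of 2.5 and 3 peaks, all coding genes a median of 2 in both lists, and the coding genes with a peak in either list a median of 3 in both.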

How the data were processed

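DNaseI-seq peak lists of 2 samples were analysed, grouped by title, with 1 list per condition. Per the labels, the authors used MACS2 version 2.1.2 and mm9. Per the methods, DNaseI-seq reads passed through the ATAC-seq pipeline, which called peaks with MACS2 and applied an irreproducible discovery rate filter, with DNaseI-seq options that are not given in the sources used here. The deposited score is a whole-number score from 540 to 1000, used only within its own list. The other deposited columns used are interval positions. Read depth is not held in the lists. The study's reporting summary gives total and filtered reads, higher for vehicle than for TGFβ 2 h; these values were not used, and peaks were not scaled by depth. Each interval recurred over several rows with 1 score (means of 3.96 rows for vehicle and 3.03 for TGFβ 2 h), and these were counted as 1 peak, so a broad peak with many rows counts once. Coordinates are 1-based, and genome and gene models were NCBIM37 and GENCODE M1. The score rank is the percent rank, ties at their mean. Wilson and exact binomial 95% intervals cover counting error only. Python 3.11.15, pandas 2.3.3 and scipy 1.17.1 were used, and overlap and motif counting were tested on simulated data. Alternatives changed the window, assignment, overlap, score, list length, promoter and motif settings or left out a gene. The genes and lists were chosen with earlier results of these data known. Named were all 10 genes, each promoter peak, every vehicle-only peak and each gene's highest-scoring TGFβ-only peak; other peaks were added after their values were seen. Spry3 was not found in the annotation and was not analysed here.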

Additional observations from a re-analysis of the deposited data

How the results depend on the processing

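Of 121 recomputed values of the counts, ratios and shares of the 10 genes, 101 stayed within 1.5 times the value or within its 95% interval, and 1 reversed. Many of the values leave out 1 of the 10 genes, which can hardly move a result past such limits. The tally is therefore no measure of stability. The peak ratio of 1.33 fell to 1 at equal list length and still counts among the 101. The reversal was the ratio of TGFβ-only to vehicle-only peaks, 0.857 with the TGFβ 2 h list cut to the vehicle length, where TGFβ-only peaks numbered 6. Counts moved with the unit and the window: counting rows gave 97 for vehicle and 108 for TGFβ 2 h, 15 and 37 of them unshared, the gene body alone gave 12 and 18 peaks, 2 and 8 unshared, and 100 kb gave 42 and 51 peaks, 13 and 21 unshared. Peaks not below their own list's median score numbered 11 and 14, at unlike limits since that median is 1000 for vehicle and 927 for TGFβ 2 h. At 1000 in both lists there were 11 and 12. With overlap recomputed among the kept peaks, 0 and 3 were unshared. The 3 were distal peaks of Dusp5, Dusp6 and Dusp10 that are shared in the full lists. Their vehicle partners, with scores of 689, 727 and 806, fell below the limit. No TGFβ-only peak of the full lists reached 927, the highest being 918 at Spred2. Counting peaks up to 1000 bp apart as shared left 3 vehicle-only peaks. Leaving out each gene in turn gave 20 to 23 vehicle peaks, 25 to 30 TGFβ 2 h peaks, 4 to 6 vehicle-only and 8 to 13 TGFβ-only peaks, with ratios of 1.19 to 1.45 and 1.6 to 3. The differences of single genes, TGFβ 2 h minus vehicle, were less stable: of 80 recomputed values 31 were the same, 47 moved and 2 reversed, to -2 at Dusp6 and to -2 at Spry4 with every row counted. In that setting 5 genes had more TGFβ 2 h rows and 5 fewer, and at equal list length 4 genes had more peaks, 3 equal and 3 fewer. No paired analysis was possible because there was 1 list for a condition and no result comes from a test. The lists carry no read depth, which per the study differed between the libraries, so a peak called in 1 list may lie just under the threshold in the other. The cause of these moves was not tested.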
